A study of Mus musculus with 8 samples.

Results

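The response to interleukin-33 (IL-33) was compared between group 2 innate lymphoid cells (ILC2s) with and without the transcription factor STAT3, gene by gene. For each gene the response was the mean of the IL-33 libraries minus the mean of the control libraries on the log2(FPKM + 1) scale (FPKM counts fragments relative to gene length and library depth), and the quantity described here is the response in STAT3-KO cells minus the response in WT cells. All 8 libraries of the series entered this difference. It was computed for the 11877 of 22075 listed genes whose FPKM was 1 or more in 2 or more libraries. Genes were then placed by their pattern, as responding in opposite directions, in 1 genotype only, in the same direction but unequally, or alike.

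The 4 groups held 2 libraries each. WT cells carried floxed Stat3 alleles without Cre (Stat3fl/fl), and STAT3-KO cells carried the same alleles with Vav-iCre (VavicreStat3fl/fl), a recombinase driven by the Vav promoter, which is active across blood cells. Loss of STAT3 and presence of the recombinase therefore cannot be told apart. ILC2s were taken from lungs of C57BL/6 mice after a brief papain exposure and grown for about 5 days with IL-2 at 10 ng/ml. The IL-33 groups then received IL-33 at 10 ng/ml for 2 days, whereas the labels do not describe the medium of the control groups in those days. They also do not say whether the 2 libraries of a group came from separate mice or cultures, so the p-values measure only the spread between these libraries. Mouse age and the number of mice pooled are not in the labels.

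IL-33 is an alarmin, a cytokine released by damaged barrier cells. It binds the receptor ST2, encoded by Il1rl1, and signals through MyD88 and IRAK kinases to NF-kB and AP-1, which in ILC2s switches on type 2 cytokine genes such as Il5 and Il13. STAT3 is activated by JAK kinases downstream of receptors for cytokines such as IL-6, IL-10, IL-21 and IL-27, enters the nucleus and binds DNA at paired TTC and GAA half-sites. Among its well known targets is Socs3, whose product shuts off cytokine receptor signalling.

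Stat3 itself measured 41.7 and 50.7 FPKM in WT control, 49 and 55.3 in WT with IL-33, 15.3 and 16 in STAT3-KO control, and 8.03 and 9.69 in STAT3-KO with IL-33. Every STAT3-KO library lay below every WT library, and within STAT3-KO the IL-33 libraries lay below the controls. Which exons were floxed is not in the labels, and transcripts without them could still be counted. The responses differed by -0.94 ± 0.21 (standard error of limma, adjusted p = 0.0197). This call was lost without WT control library 1 (-0.80), WT IL-33 library 1 (-1.02) or 2 (-0.85), STAT3-KO control library 1 (-0.97) or 2 (-0.91), or STAT3-KO IL-33 library 1 (-0.81).

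The promoters of 3 genes are shown because these genes responded differently to IL-33 in the 2 genotypes, and because the STAT half-site pair TTCNNNGAA could be looked for in them. Each is the 250 bases before the RefSeq start site on the gene's own strand, 5′ to 3′, from RefSeq (GRCm38.p6), with matches to the motif in capitals. Socs3 (chr11:117969367-117969616, minus strand) rose more in WT, Il5 (chr11:53720544-53720793, plus strand) also rose more in WT, and Il9 (chr13:56482258-56482507, minus strand) rose more in STAT3-KO.
Socs3: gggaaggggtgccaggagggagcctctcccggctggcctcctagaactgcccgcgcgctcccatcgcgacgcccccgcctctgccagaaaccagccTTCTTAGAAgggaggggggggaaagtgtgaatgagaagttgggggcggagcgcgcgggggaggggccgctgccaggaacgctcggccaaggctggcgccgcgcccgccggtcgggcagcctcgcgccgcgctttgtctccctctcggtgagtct
Il5: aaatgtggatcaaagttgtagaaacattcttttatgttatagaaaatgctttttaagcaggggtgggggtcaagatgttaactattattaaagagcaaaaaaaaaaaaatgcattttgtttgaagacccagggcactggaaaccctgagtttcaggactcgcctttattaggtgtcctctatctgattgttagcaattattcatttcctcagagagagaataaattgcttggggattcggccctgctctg
Il9: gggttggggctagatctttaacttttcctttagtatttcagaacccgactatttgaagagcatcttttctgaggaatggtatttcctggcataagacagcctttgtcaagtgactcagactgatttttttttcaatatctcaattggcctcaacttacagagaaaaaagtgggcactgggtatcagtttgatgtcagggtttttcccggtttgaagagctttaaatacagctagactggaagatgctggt
The motif reads the same on both strands, so a search of either strand finds every match. The Socs3 promoter held 1 match, TTCTTAGAA, whose first base lies 154 bases before the start. The windows of Il5 and Il9, searched over 300 bases that include 50 after the start, held 0. Of all 32851 promoters of that length in the table, 8.30% held a match. Promoters were matched for only 8166 of the 11877 tested genes, so shares by response pattern were not compared. A match here describes letters in a window, not a bound site.

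The difference of responses passed an adjusted p of 0.05 (limma, Benjamini-Hochberg over all tested genes) for 1799 genes, 15.1% of those tested. Of these, 798 (6.72% of tested genes) were higher in STAT3-KO, meaning that IL-33 raised them more or lowered them less there, and 1001 (8.43%) were lower. The called difference was at least 2-fold for 482 of the higher and 773 of the lower genes. In every called gene all 4 pairings of an IL-33 with a control library in 1 genotype lay on the same side of all 4 in the other, a separation that 47.4% of all tested genes also showed. Rescaling the libraries to TPM changed the split: 33.8% of its 1656 called genes were higher in STAT3-KO, against 44.4% here. That rescaling moved the median response over all genes in STAT3-KO from -0.18 to -0.35 and the median difference of responses from -0.02 to -0.12, so the medians of gene lists are read below against the median of all genes, -0.02.

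The responses themselves were called for 4285 genes in WT (36.1%) and 6063 in STAT3-KO (51%). Across the tested genes, which are not independent replicates, the responses of the genotypes had a Pearson's r of 0.649 and a Spearman's rho of 0.601. The spread of responses was wider in STAT3-KO, with a standard deviation across genes of 0.992 against 0.826 in WT. By pattern, 165 genes responded in opposite directions, 851 in STAT3-KO only and 340 in WT only. A further 316 moved the same way but more in STAT3-KO, 110 the same way but more in WT, and 17 differed without either response being called. Responses were alike in 1470 genes, meaning both called in the same direction with no called difference and its 95% interval within -1 to 1. Of the rest, 4139 (34.8%) responded in at least 1 genotype without the comparison being settled, and 4469 (37.6%) had no call at all.

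**Figure D1:**
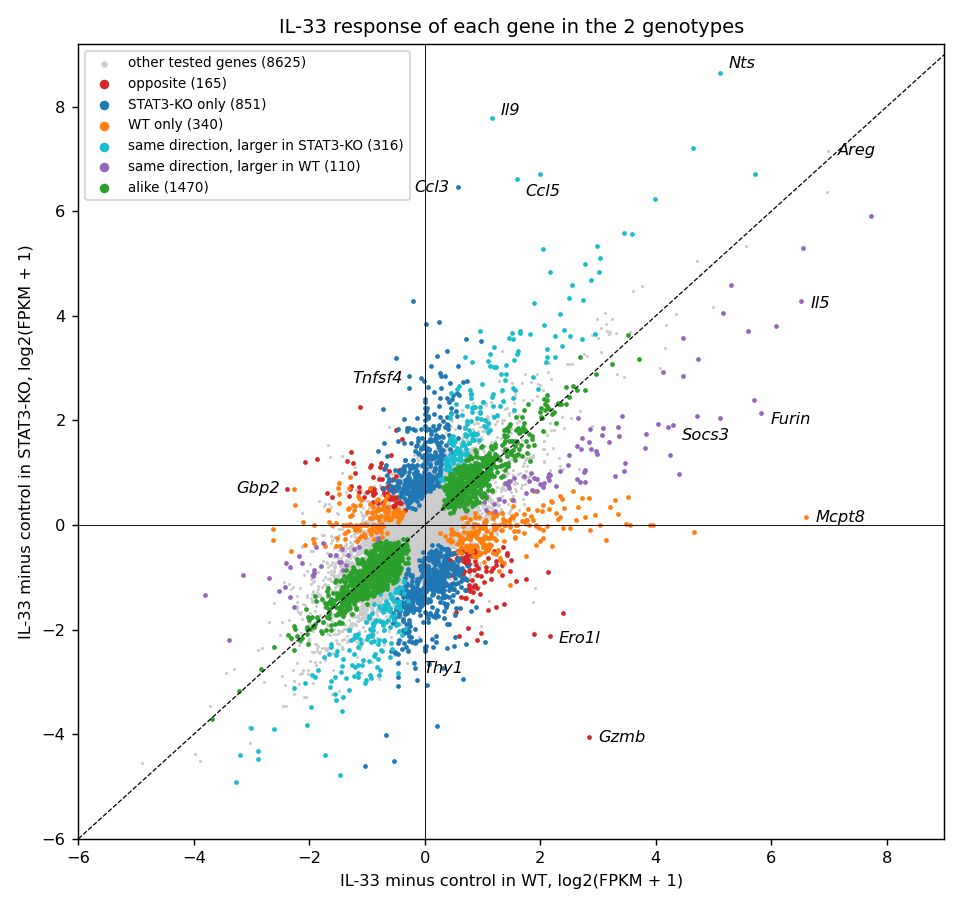
Each point is 1 of 11877 tested genes, placed by its IL-33 response in WT (horizontal) and in STAT3-KO (vertical), both as differences of log2(FPKM + 1) between means of 2 libraries; the dashed line marks equal responses and colours mark the pattern, with gene counts in the key. Il9 and Ccl5 lie far above the line and Gzmb, Mcpt8 and Furin far below it, while Areg lies on it.

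Genes that rose in WT and fell in STAT3-KO numbered 95, of the 165 with opposite responses (1.39% of tested genes). They were led by Gzmb, the serine protease granzyme B of cytotoxic granules. Gzmb (GRCm38 chromosome 14, 56258838 to 56262260) measured 11.8 and 9.27 FPKM in WT control, 78.6 and 83.9 in WT with IL-33, 17.7 and 16.9 in STAT3-KO control, and 0.214 and 0 in STAT3-KO with IL-33. The STAT3-KO controls lay somewhat above the WT controls, and under IL-33 the WT libraries were the highest and the STAT3-KO libraries the lowest of the 8. The response was 2.84 in WT and -4.05 in STAT3-KO, a difference of -6.89 ± 0.23 (adjusted p = 9.32e-06).

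Ero1l, which encodes the oxidase that drives disulfide formation in the endoplasmic reticulum, measured 228 and 354 FPKM in WT control, 1289 and 1263 in WT with IL-33, 327 and 314 in STAT3-KO control, and 68.2 and 77.7 in STAT3-KO with IL-33 (-4.28 ± 0.25, adjusted p = 8.23e-05). Hif1a, the oxygen-sensing transcription factor, measured 60.3 and 81.6, 184 and 183, 71.2 and 76, and 18.6 and 33.8 FPKM in the same order (-2.89 ± 0.35, adjusted p = 0.00196). For both genes the control libraries of the genotypes overlapped, whereas under IL-33 every WT library was above every control and every STAT3-KO library below. Gzmb, Ero1l and Hif1a were chosen for called opposite responses and genotypes that do not overlap. Their order under IL-33 therefore follows in part from the choice. Serinc5, a membrane protein gene, differed by -4.08 ± 0.42 and Atad2, a chromatin ATPase gene, by -2.72 ± 0.39. Atad2 kept the call but lost its rise in WT without WT IL-33 library 1 or 2, where the difference was -2.71 and -2.73, and without the filter on low values.

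Further genes of this kind came from the gene lists. Insig1, which retains the sterol sensor of the cell in the endoplasmic reticulum, rose from 24.9 and 25.6 to 68.8 and 70 FPKM in WT and fell from 29.3 and 28.8 to 20.8 and 18.7 in STAT3-KO. Birc2, a ubiquitin ligase of NF-kB signalling, rose from 8.09 and 9.01 to 14 and 14.7 in WT and fell from 12 and 11.7 to 7.65 and 6.81 in STAT3-KO. Gpr183, the oxysterol receptor that guides migration, differed by -1.78 ± 0.19, and its response of -0.42 in STAT3-KO was called in 15 of 20 alternative analyses (other pseudocounts, filters, scalings and fits, or 1 library left out). It was not called without STAT3-KO control library 1 or 2 or STAT3-KO IL-33 library 2. Fasn, the fatty acid synthase gene, had a difference of -1.33 ± 0.23, and its opposite pattern held in only 12 of 20 alternatives. Its response in STAT3-KO was not called without WT IL-33 library 1 or 2, STAT3-KO control library 1 or 2, or STAT3-KO IL-33 library 1.

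Genes that fell in WT and rose in STAT3-KO numbered 70, with interferon-inducible GTPases among those named by the rule. Igtp, an immunity-related GTPase gene, measured 214 and 173 FPKM in WT control, 79.7 and 82.3 in WT with IL-33, 99.1 and 114 in STAT3-KO control, and 248 and 240 in STAT3-KO with IL-33. Gbp2, a guanylate-binding protein gene, measured 86.1 and 82.7, 16.1 and 14.5, 46.6 and 52, and 71.5 and 89.7 FPKM. In both genes the WT controls were above the STAT3-KO controls, and IL-33 turned that order round. Igtp was chosen for opposite responses without overlap and Gbp2 for a small p within its list. The turn therefore follows in part from the choice. The differences were 2.43 ± 0.17 (adjusted p = 0.000247) and 3.08 ± 0.19 (adjusted p = 9.37e-05). Gbp10, a near relative whose reads may be shared with other Gbp genes, differed by 3.29 ± 0.32.

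Outside the interferon genes, Rxra, the retinoid X receptor, measured 2.8 and 2.84 FPKM in WT control, 0.727 and 0.799 in WT with IL-33, 2.3 and 2.45 in STAT3-KO control, and 13.7 and 16.9 in STAT3-KO with IL-33 (3.38 ± 0.25, adjusted p = 0.000279). Gypc, a membrane skeleton protein gene best known from red blood cells, fell in WT from 17.5 and 19 to 3.88 and 4.67 FPKM and rose in STAT3-KO from 20.4 and 22 to 51.9 and 52.1. The controls of the genotypes were close for both genes. The mitochondrial ribosomal RNA mt-Rnr1 differed by 2.57 ± 0.37, and WT IL-33 libraries 1 and 2 were uneven for it, at 109 and 59.8 FPKM. Il12rb1, a receptor chain of IL-12 and IL-23, moved in opposite directions by smaller amounts (-0.80 in WT, 0.41 in STAT3-KO). Its rise in STAT3-KO was not called under the rescalings to TPM and without mitochondrial genes, nor without STAT3-KO control library 1 or STAT3-KO IL-33 library 1.

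A response in STAT3-KO only was the most frequent unequal pattern, with 389 rises and 462 falls (851 genes, 7.17% of tested genes). In 747 of them, 350 rises and 397 falls, the 95% interval of the WT response also lay within -1 to 1, so that a 2-fold response in WT was outside it. The genes named in the paragraphs on this pattern belong to that subset. The 5 rises with the largest differences started from almost nothing. Crabp2, a retinoic acid binding protein gene, measured between 0 and 0.228 FPKM in the 6 other libraries and 14 and 12.7 in STAT3-KO with IL-33. Cx3cl1, the chemokine fractalkine, measured 23.4 and 29.8 FPKM there against at most 1.45 elsewhere. Ccl4, a chemokine for monocytes and T cells, measured 7.9 and 9.04 against at most 0.372, Serpinc1 (antithrombin) 9.61 and 9.22 against at most 0.37, and the transporter gene Slc26a10 12.5 and 8.76 against at most 0.793. In all 5 genes the STAT3-KO IL-33 pair was the highest. They were chosen for genotypes that do not overlap and passed the filter on low values mainly through that pair, so this separation follows from the choice. The differences of responses lay between 2.92 ± 0.34 for Slc26a10 and 3.82 ± 0.30 for Crabp2, and on this scale they understate the change of genes near 0.

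Tnfsf4, which encodes OX40L, the ligand by which ILC2s co-stimulate T cells, was abundant. It measured 51.9 and 50.1 FPKM in WT control, 48.5 and 49.1 in WT with IL-33, 110 and 114 in STAT3-KO control, and 748 and 837 in STAT3-KO with IL-33. The WT libraries barely moved, and both STAT3-KO groups lay above them. The difference was 2.87 ± 0.13 (adjusted p = 4.25e-05). Bcl2l1, the anti-apoptotic gene of BCL-XL and a reported STAT3 target, rose from 113 and 103 to 278 and 312 FPKM in STAT3-KO and measured 80.9 and 90.9 and then 101 and 114 in WT (1.12 ± 0.16, adjusted p = 0.00404). Stat5b measured 14.7 and 18.4 FPKM in STAT3-KO with IL-33 and between 7.62 and 9.8 in the other groups (1.10 ± 0.22), a call lost without WT IL-33 library 2 (1.03) or STAT3-KO control library 1 (1.05).

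Among the falls in STAT3-KO only, Gzme, another granzyme gene, measured 5.46 and 5.86 FPKM in WT control, 6.31 and 7.04 in WT with IL-33, 14.2 and 12.6 in STAT3-KO control, and was listed at 0 in both STAT3-KO IL-33 libraries. Its difference was -4.05 ± 0.23 (adjusted p = 8.23e-05), and its reads may be shared with the neighbouring granzyme genes. Fgl2, a secreted immunoregulatory protein gene, measured 887 and 1068, 878 and 885, 1045 and 1043, and 115 and 152 FPKM in the same order (-2.83 ± 0.20). Dnmt1, the maintenance DNA methyltransferase, measured 22.6 and 27.8, 27.8 and 28.1, 28 and 27.4, and 4.53 and 4.9 (-2.48 ± 0.19). For all 3 genes the STAT3-KO IL-33 pair lay below the 6 other libraries, which for Fgl2 and Dnmt1 were close to each other. The 3 genes were chosen for a called fall in STAT3-KO only and genotypes that do not overlap. This separation therefore follows in part from the choice.

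Id3, an inhibitor of E-protein transcription factors, and Spp1, which encodes osteopontin, had the same pattern, with differences of -3.04 ± 0.37 and -2.56 ± 0.32. Thy1, a surface marker of ILC2s, measured 37.2 and 41.9 FPKM in WT control, 31.7 and 38 in WT with IL-33, 19.6 and 21.3 in STAT3-KO control, and 2.56 and 2.37 in STAT3-KO with IL-33 (-2.45 ± 0.20, adjusted p = 0.000365). Jak1, the kinase shared by many cytokine receptors, measured between 90.3 and 122 FPKM in the other groups and 30.6 and 36.2 in STAT3-KO with IL-33 (-1.82 ± 0.21). The amino acid transporter gene Slc38a2 measured 2.78 and 3.97 there against 13 to 19 elsewhere (-1.91 ± 0.29).

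A response in WT only was called for 340 genes (2.86% of tested genes), 210 rises and 130 falls, and the STAT3-KO response lay within -1 to 1 by its 95% interval in 294, 179 rises and 115 falls. Mcpt8, a basophil protease gene, measured 0 and 0.126 FPKM in WT control, 92.8 and 114 in WT with IL-33, 0 in both STAT3-KO controls, and 0.246 and 0 in STAT3-KO with IL-33. Its difference was -6.45 ± 0.29 (adjusted p = 4.25e-05). Mcpt8 (56082166 to 56085273) lies near Gzme (56117626 to 56120625) and Gzmb on chromosome 14, and these 3 neighbours fell into 3 different patterns. Other basophil and mast cell genes gave no parallel rise: Cpa3 fell in both genotypes, and Hdc, Mcpt1 and Cma1 stayed under 1 FPKM in every library.

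Ly6c1, a surface antigen gene with near copies among the Ly6 genes, measured 38.5 and 43.2 FPKM in WT with IL-33 and at most 0.866 elsewhere, and Prss23, a protease gene, measured 11.6 and 9.88 there and was listed at 0 in the 6 other libraries. Mxd1, an antagonist of MYC, measured 80.2 and 78.4 FPKM against 5.5 to 7.59 elsewhere (-3.46 ± 0.21, adjusted p = 8.23e-05). Aqp9, a glycerol channel gene, rose from 12.4 and 11.1 to 107 and 115 in WT and measured 0.761 to 2.47 in STAT3-KO, so here the genotypes already differed in control. Ctla4, the inhibitory receptor gene, measured 9.75 and 6.99 in WT with IL-33 and at most 0.604 elsewhere. Mcpt8, Ly6c1, Prss23 and Ctla4 passed the filter on low values only through the WT IL-33 pair. Mcpt8, Ly6c1 and Prss23 were also chosen for genotypes that do not overlap. The separation of such genes therefore follows in part from the choice. Ly6a, which encodes Sca-1, rose in WT from 235 and 236 to 1089 and 878 FPKM and measured 136 and 108 and then 117 and 110 in STAT3-KO (-2.14 ± 0.19). Dgat1, the enzyme that finishes triglycerides, rose from 20.3 and 20.4 to 71.1 and 67.3 in WT and measured between 20 and 26.9 in STAT3-KO (-1.86 ± 0.20). Ern1, the IRE1 sensor of unfolded proteins, measured 18.2 and 18.6 in WT with IL-33 and between 3.51 and 5.19 elsewhere (-1.95 ± 0.26).

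Falls in WT only included Selenop. Selenop, a selenium carrier gene, fell from 86.3 and 77.9 to 21.9 and 15.8 FPKM in WT and measured 96.2 and 100 and then 68.4 and 82.5 in STAT3-KO (1.70 ± 0.23), where a smaller fall was called under the rescalings to TPM and without mitochondrial genes, with the replicate block within genotype, and without WT IL-33 library 1 or 2. Rtn4, an endoplasmic reticulum shaping gene, fell from 17.4 and 14.2 to 5.12 and 3.59 and stayed between 16.8 and 20.8 in STAT3-KO (1.71 ± 0.27). Apol7e fell from 32.1 and 28.9 to 8.96 and 4.3 and stayed between 19.5 and 21.6 (2.17 ± 0.36), and the protease gene Tysnd1 differed by 1.65 ± 0.26. In these 4 genes every WT IL-33 library lay below the 6 others. They were chosen for genotypes that do not overlap, so this separation follows in part from the choice. Raly, an RNA-binding protein gene, had WT controls of 96.1 and 43.3 FPKM, and its difference of 2.55 ± 0.47 was not called without WT IL-33 library 1 (2.57) or 2 (2.53) or STAT3-KO IL-33 library 1 (2.40).

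Of genes that moved the same way in both genotypes, 316 moved more in STAT3-KO (2.66% of tested genes; 170 up and 146 down). Il9, a growth factor of mast cells that ILC2s also make, was listed at 0 in both WT controls, measured 1.78 and 0.802 FPKM in WT with IL-33, 0.222 and 0.116 in STAT3-KO control, and 295 and 220 in STAT3-KO with IL-33. The WT IL-33 pair was above the controls but far below the STAT3-KO IL-33 pair, and the WT rise was not called without WT IL-33 library 1. Il9 passed the filter on low values mainly through the STAT3-KO IL-33 pair. The difference was 6.61 ± 0.34 (adjusted p = 7.83e-05), and among the genes named here only Gzmb had a larger one in size. Ccl5, a chemokine for T cells and eosinophils, measured 1.92 and 2.1, 8.9 and 7.3, 5.45 and 4.74, and 718 and 492 FPKM in the same order (5.02 ± 0.27). Ccl9 measured at most 0.332 in control of either genotype, 3.48 and 3.67 in WT with IL-33, and 135 and 120 in STAT3-KO with IL-33 (4.73 ± 0.28). Both lie in a chemokine cluster on chromosome 11, Ccl5 at 83525778 to 83530518 and Ccl9 at 83572919 to 83578636, with Ccl3 and Ccl4.

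Nts, which encodes the neuropeptide neurotensin, was listed at 0 in all 4 control libraries and measured 34.1 and 32.9 FPKM in WT and 436 and 363 in STAT3-KO with IL-33 (3.53 ± 0.20). Csf2, which encodes the myeloid growth factor GM-CSF, measured 15.4 and 14, 20.9 and 20.2, 24.3 and 21, and 147 and 124 FPKM in the same order (2.07 ± 0.19, adjusted p = 0.000676). The WT rise of 0.46 in Csf2 was not called when any of the 4 WT libraries was left out. Ccr7, the receptor that leads cells to lymph nodes, rose to 109 and 127 FPKM in WT and to 318 and 320 in STAT3-KO from 14.6 to 17.5 in control (1.58 ± 0.16).

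Falls that were deeper in STAT3-KO included Il7r, the IL-7 receptor of lymphoid cells, which measured 501 and 543, 180 and 173, 544 and 581, and 69.6 and 78.4 FPKM (-1.36 ± 0.14, adjusted p = 0.000999). Gata3, the lineage factor of ILC2s, measured 464 and 454, 278 and 292, 514 and 516, and 175 and 171 (-0.88 ± 0.11, adjusted p = 0.00256). The controls of the genotypes were close for both, and each IL-33 pair lay below all controls. Ets1, a transcription factor of lymphocyte development, fell from 81.5 and 77.8 to 9.26 and 11.5 in STAT3-KO and from 97.8 and 103 to 76.9 and 68.7 in WT (-2.37 ± 0.18), where the fall was not called without WT control library 1 or 2 or WT IL-33 library 2. Itgb3, an integrin chain gene, differed by -3.31 ± 0.44 and Sla2, an adaptor gene, by -2.06 ± 0.27.

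Genes that moved the same way but more in WT numbered 110 (0.926% of tested genes; 79 up and 31 down), and the rises held 3 genes at the centre of the ILC2 response. Il5, the growth factor of eosinophils, measured 38.5 and 36 FPKM in WT control, 3602 and 3398 in WT with IL-33, 49.2 and 42.4 in STAT3-KO control, and 1023 and 818 in STAT3-KO with IL-33. Il13, which drives mucus production, measured 30.6 and 37.9, 2021 and 2783, 46 and 47.8, and 720 and 625. Socs3 measured 5.92 and 5.83, 167 and 191, 2.57 and 3.34, and 14.8 and 16.4. In all 3 genes IL-33 raised both genotypes, and every WT IL-33 library was above every STAT3-KO IL-33 library. The differences were -2.22 ± 0.18 for Il5 (adjusted p = 0.00036), -2.27 ± 0.23 for Il13 (adjusted p = 0.00103) and -2.63 ± 0.21 for Socs3 (adjusted p = 0.000347). All 3 kept this pattern in 20 of 20 alternatives. Il13 (chromosome 11, 53631324 to 53634702) and Il5 (53720794 to 53725106) lie on the same chromosome as Csf2 (54247271 to 54249667), whose difference had the opposite sign.

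Furin, a protease that activates secreted precursors, rose from 5.83 and 6.24 to 345 and 459 FPKM in WT and from 6.49 and 6.13 to 28 and 34.7 in STAT3-KO (-3.69 ± 0.23, adjusted p = 0.000102). Ifitm1, an interferon-inducible membrane gene, rose to 75.7 and 76.2 in WT and to 7.85 and 4.78 in STAT3-KO (-3.32 ± 0.34). Usp17ld, a deubiquitinase gene of a family of near copies, reached 23.3 and 17.6 against 1.05 and 0.878 (-3.44 ± 0.29). Il1r2, the decoy receptor of IL-1, rose strongly in both genotypes, to 359 and 374 FPKM in WT and 158 and 179 in STAT3-KO, from 2.81 to 3.4 in control (-1.25 ± 0.16). Il10 rose to 45.3 and 35.2 in WT and 18.4 and 13.2 in STAT3-KO, and its difference of -1.12 ± 0.32 (adjusted p = 0.049) was lost in 14 of 20 alternatives. Among these were a pseudocount of 0.1 (-0.37), both replicate blocks (-1.12) and 7 of the 8 that leave out a library (without WT control library 1 -0.94, WT IL-33 library 1 -0.94 or 2 -1.30, STAT3-KO control library 1 -1.12 or 2 -1.12, STAT3-KO IL-33 library 1 -1.34 or 2 -0.90). Of the falls, Tapbpl, which edits peptides of class I molecules, and the GTPase gene Tgtp1, whose reads a near copy may share, differed by 1.59 ± 0.22 and 1.69 ± 0.27.

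**Figure D2:**
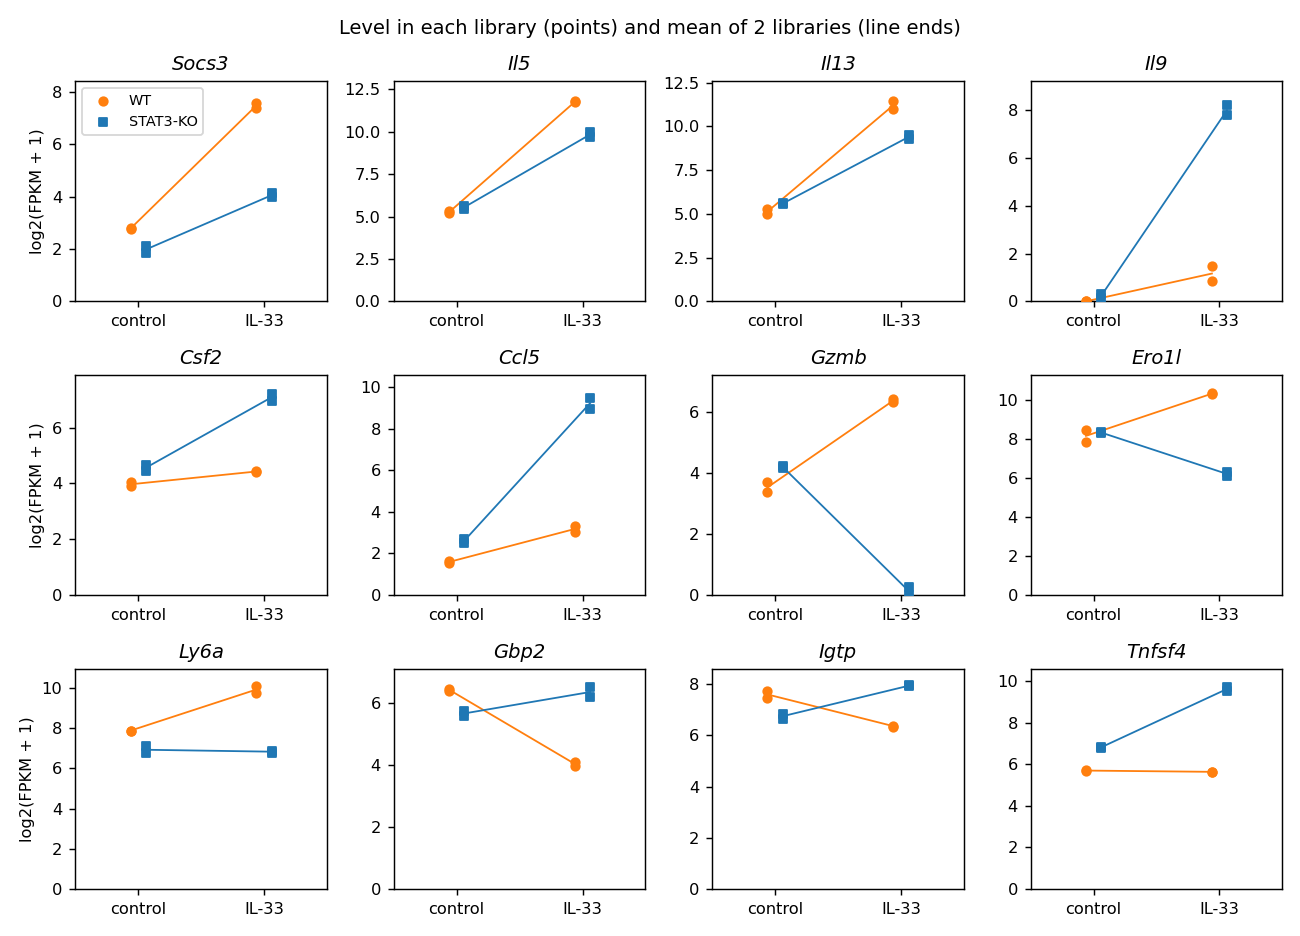
Each panel shows 1 gene on the log2(FPKM + 1) scale in control and with IL-33, with points for the 2 libraries of a group (circles WT, squares STAT3-KO) and lines between group means; the vertical ranges differ between panels. The lines cross or part for Gzmb, Ero1l, Gbp2 and Igtp, run flat in 1 genotype for Ly6a and Tnfsf4, and rise unequally for Socs3, Il5, Il13, Il9, Csf2 and Ccl5.

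Alike responses covered 1470 genes (12.4% of tested genes), 527 rises and 943 falls. Stom, a membrane scaffold gene, rose from 2.76 and 1.99 to 37.6 and 37.2 FPKM in WT and from 0.61 and 0.794 to 19 and 21.5 in STAT3-KO, a difference of 0.12 with a 95% interval of -0.42 to 0.67. Nr4a1, an immediate-early nuclear receptor, rose to 8.31 and 7.13 and to 9.15 and 9.03 from at most 0.378 (-0.09, interval -0.68 to 0.51). Adgre5, an adhesion receptor gene, fell from 90.9 and 95.2 to 21.9 and 18.4 and from 97.4 and 103 to 20.3 and 22 (-0.04, interval -0.42 to 0.34). Ifi206 (0.04, interval -0.54 to 0.63) and Tmem71 (-0.12, interval -0.88 to 0.64) also fell alike. H2-DMb2 counted as alike on this scale (-0.16, interval -0.79 to 0.46) although it was listed at 0 in WT control, and with a pseudocount of 0.1 its difference was -2.93 and called. With the same pseudocount Ifi206 differed by -1.11, Nr4a1 by -0.97 and Stom by 0.73, none of them called, and these 3 left the alike class there and with TPM. Responses of the other named alike genes, Tubb6, Hist1h1c, Csf1 and Cmpk2, differed by between -0.53 and 0.52, and they stayed alike in 13, 11, 10 and 13 of 20 alternatives, as Tmem71 did in 13. The difference of Tubb6 was called after removal of the trend of responses on gene length (-0.71), and that of Hist1h1c without WT control library 2 (0.69). Adgre5 stayed alike in 20 of 20.

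Areg, a growth factor of tissue repair and among the most strongly induced genes, rose from 4.12 and 4.99 to 727 and 680 FPKM in WT and from 2.2 and 6.46 to 745 and 648 in STAT3-KO. The IL-33 libraries of the genotypes overlapped. The difference was 0.16 with a 95% interval of -0.87 to 1.20, which is too wide for the alike class. Il4 (-0.90, interval -1.54 to -0.26, adjusted p = 0.0638) and Il6 (1.02, interval 0.20 to 1.84, adjusted p = 0.0918) were likewise not settled. Il4 passed the threshold after a correction for gene length (a difference of -1.050), and Il6 passed it without STAT3-KO control library 2 (1.41).

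Of 15 tested genes for alarmin receptors and their proximal signalling, 7 had a lower response in STAT3-KO and 0 a higher one, with a median difference of -0.65. The remaining 8 had no called difference. Over all tested genes 8.43% were lower and 6.72% higher, and the counts of the lists that follow stand against these shares. Il1rl1, the IL-33 receptor, measured 231 and 424 FPKM in WT control, 350 and 370 in WT with IL-33, 389 and 359 in STAT3-KO control, and 78.5 and 92.4 in STAT3-KO with IL-33 (-2.32 ± 0.33, adjusted p = 0.0041). Only the STAT3-KO IL-33 pair was low, while the WT control pair was wide, and without WT control library 2 the WT response was called as a rise. Il18rap, a chain of the IL-18 receptor, fell in STAT3-KO only, from 70.3 and 69.9 to 18.9 and 25.5 (-1.32 ± 0.23). Irak2, a kinase downstream of these receptors, responded alike, and Myd88 had no call in either genotype or in the comparison.

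Along the JAK-STAT pathway members diverged. Of 11 JAK and STAT genes 3 were higher, Stat5a and Stat5b among them, and 2 lower (Jak1 and Stat3). Stat5a, which like Stat5b carries signals of IL-2 and IL-7, rose from 9.02 and 7.94 to 12.4 and 12.7 FPKM in WT and from 9.65 and 7.51 to 26.2 and 29.6 in STAT3-KO (1.08 ± 0.22, adjusted p = 0.0147). Among 15 feedback inhibitors of the pathway Socs3 was the only one with a lower response, and Ptpn6, the phosphatase SHP-1, the only one with a higher one. Ptpn6 fell in WT from 41.9 and 30.5 to 21.7 and 21 and measured 41.9 and 38.2 and then 51.4 and 53.8 in STAT3-KO (1.11 ± 0.21), a call lost without WT IL-33 library 1 (1.13) or 2 (1.08) or STAT3-KO control library 2 (1.04). Of 6 tested receptors or ligand chains upstream of STAT3, Ebi3 and Il12rb1 were higher, Il27ra was lower and 3 were alike. The call for Ebi3 (1.40 ± 0.28), a shared subunit of IL-27 and IL-35, was lost without WT IL-33 library 1 (1.47) or 2 (1.32), STAT3-KO control library 2 (1.20) or STAT3-KO IL-33 library 1 (1.19). The call for the IL-27 receptor gene Il27ra (-0.71 ± 0.13) was lost without STAT3-KO control library 1 (-0.65). Of 16 genes reported as STAT3 targets in other cells, 7 had a lower response, 2 a higher one (Bcl2l1 and Myc) and 4 were alike, with a median of -0.40.

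The secreted products split. Of 16 effector cytokine genes 5 were higher (Il9, Csf2, Il3, Ebi3 and Lif), 4 were lower (Il5, Il13, Il10 and Osm) and 3 were alike, so the median of 0.22 describes neither side. Il3 was low throughout, at most 0.319 FPKM outside STAT3-KO with IL-33 and 2.83 and 1.43 there. It passed the filter on low values only through that pair, so its place among the higher genes follows in part from the filter. Of 9 chemokine genes 6 were higher and 1, Cxcl2, was lower, with a median of 2.41. With TPM the median was 3.70, and 6 were higher and 0 lower. Ccl3, a close relative of Ccl4, measured at most 3.08 FPKM in the 6 other libraries and 154 and 113 in STAT3-KO with IL-33 (5.90 ± 0.57, adjusted p = 0.000889). Its WT response of 0.57 had an interval that reached past 1, so it is outside the bounded subset.

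Identity and receptor genes of ILC2s mostly had lower responses without STAT3. Of 24 tested genes of this list 16 had a lower response, 2 a higher one and 2 were alike, with a median of -1.02. Besides Thy1, Ets1, Ly6a, Il7r and Gata3, the lower ones included the neuromedin U receptor Nmur1, at 257 and 237, 164 and 186, 230 and 230, and 57.2 and 64.5 FPKM (-1.41 ± 0.15). Rora, another lineage factor, and the co-stimulatory receptor Icos responded alike. Of 14 chemokine and migration receptors 6 were lower and 3 higher. Of 13 cytotoxic granule genes 6 were lower and 1 higher, with a median of -1.29, and Ctsw, a cathepsin of cytotoxic cells, fell from 97.9 and 85.9 to 1.84 and 4.75 in STAT3-KO and measured 58.8 and 63 and then 39.1 and 45 in WT (-3.99 ± 0.39). Of 22 co-stimulatory and inhibitory molecules 5 were higher and 5 lower, with a median of 0.33. With TPM 3 were higher and 5 lower, and with libraries rescaled by the median of ratios 5 were higher and 3 lower.

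Of the 20 tested members of the interferon-stimulated list 9 were higher and 0 lower, with a median of 0.72. These counts hold for this list only, which was chosen with earlier results of these data known. Ifitm1, the interferon-inducible gene given above, is not on it and was lower (-3.32). The median response of the list was -0.95 in WT and -0.26 in STAT3-KO. By pattern, 2 of the 9 were opposite (Igtp and Gbp2), 3 responded in WT only, 3 moved the same way but more in WT and 1 responded in STAT3-KO only. Ifi47, another interferon-inducible GTPase gene, measured 307 and 322, 90.2 and 93, 175 and 195, and 143 and 150 FPKM (1.43 ± 0.13, adjusted p = 0.000732). WT controls were the highest libraries, and the IL-33 pairs stood in the reverse order. With a TPM rescaling 7 of the 20 were higher and 0 lower.

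Of the metabolic lists, some held more lower and some more higher calls, and most members had no call. Fatty acid and lipid droplet genes were lower in 10 of 25 members and higher in 1 (median -0.33), glycolysis genes lower in 8 of 24 and higher in 3 (median -0.38), and cholesterol synthesis genes lower in 5 of 23 and higher in 0 (median -0.31). Pkm, the pyruvate kinase gene, rose from a mean of 323 to 741 FPKM in WT and from 296 to 393 in STAT3-KO (-0.79 ± 0.12). Slc16a3, the lactate exporter, reached 117 and 141 in WT and 38.5 and 41.4 in STAT3-KO (-1.21 ± 0.20), and Eno1 rose in WT only (-0.83 ± 0.12). The nuclear genes of the respiratory chain leaned the other way, with 8 of 52 higher and 1 lower (median 0.24). That median lay 0.26 above the median of all genes, and 0.08 above it after the length correction described further on. Uqcrc1, a subunit of complex III, measured 156 and 146 FPKM in WT control, 119 and 136 in WT with IL-33, 140 and 139 in STAT3-KO control, and 204 and 216 in STAT3-KO with IL-33 (0.83 ± 0.14, adjusted p = 0.00749). TCA cycle genes were higher in 4 of 22 and lower in 1 (median 0.36), and 3 of 10 mitochondrially encoded mRNAs were higher and 0 lower. Of these 3, mt-Nd4 (0.88) lost its call in 11 of 19 alternatives, among them TPM, the length correction and 7 of the 8 that leave out a library (0.60 to 0.95, the exception being without WT IL-33 library 1). The call for mt-Nd2 (1.12) was lost in 8 of 19, 6 of them without WT control library 1 (0.99), WT IL-33 library 2 (0.77), STAT3-KO control library 1 (1.18) or 2 (1.06), or STAT3-KO IL-33 library 1 (1.00) or 2 (1.24).

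For mt-Co1, a subunit of cytochrome c oxidase, the WT libraries went from 6544 and 5690 to 2525 and 1733 FPKM and the STAT3-KO libraries from 6990 and 7427 to 5384 and 5539 (1.14 ± 0.23, adjusted p = 0.0134). The call was lost without WT control library 1 (1.04) or STAT3-KO control library 1 (1.10). The share of all FPKM on mitochondrially encoded genes went from 5.55% to 6.18% in WT control to 2.31% to 3.33% in WT with IL-33, and from 6.86% to 7.13% to 6.12% to 6.26% in STAT3-KO.

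Stress and growth lists were mixed. Of 22 unfolded protein response genes 7 were lower, 1 higher and 6 alike (median -0.49), with Hspa5, the main chaperone, alike. Of 33 cell cycle genes 8 were lower and 2 higher (median -0.54), among the lower ones the replication helicase genes Mcm2 and Mcm4, which fell in STAT3-KO only (-1.40 ± 0.20 and -1.21 ± 0.16). Of 18 ATF4 targets 11 were alike, 0 higher and 1, Trib3, lower (-1.74). Trib3 lost its call in 9 of 20 alternatives, among them those without WT control library 1 (-1.55), WT IL-33 library 1 (-1.93) or 2 (-1.54), STAT3-KO control library 1 (-2.05) or 2 (-1.42), or STAT3-KO IL-33 library 1 (-1.32). With TPM or without mitochondrial genes 3 of the 18 were lower, and 4 after the length correction. Of 22 NF-kB subunits and response genes 8 were alike, 3 higher and 4 lower (median -0.04), and of 18 AP-1, BATF, EGR and NR4A genes 5 were alike, 4 higher and 0 lower (median 0.10). Cd83, an activation marker, measured at most 1.96 FPKM in WT, 4.12 and 5.5 in STAT3-KO control and 22.5 and 29.5 in STAT3-KO with IL-33 (2.93 ± 0.37), with its WT response of -0.72 called as a fall in 6 of 20 alternatives. Nfkb2, an NF-kB subunit gene, rose from 57.8 and 56.3 to 141 and 150 in STAT3-KO and from 52.8 and 56.9 to 73.5 and 75.9 in WT. With TPM 1 of the 18 AP-1, BATF, EGR and NR4A genes was higher. The remaining lists held few calls: 2 higher and 2 lower of 20 survival and death genes and of 22 methionine cycle genes, 1 and 1 of 17 serine and folate genes, 1 and 2 of 25 methyltransferases, and 1 and 2 of 14 amino acid transporters. Of 11 neuropeptide and nerve-associated genes 2 were higher and 4 lower (median -0.72). Relative to the median of all genes, the median of the serine and folate list turned from 0.11 to -0.04 with TPM. After the length correction that of the NF-kB list turned from -0.02 to 0.01 and that of the methyltransferases from -0.12 to 0.05, so no direction is given for these lists.

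**Figure D3:**
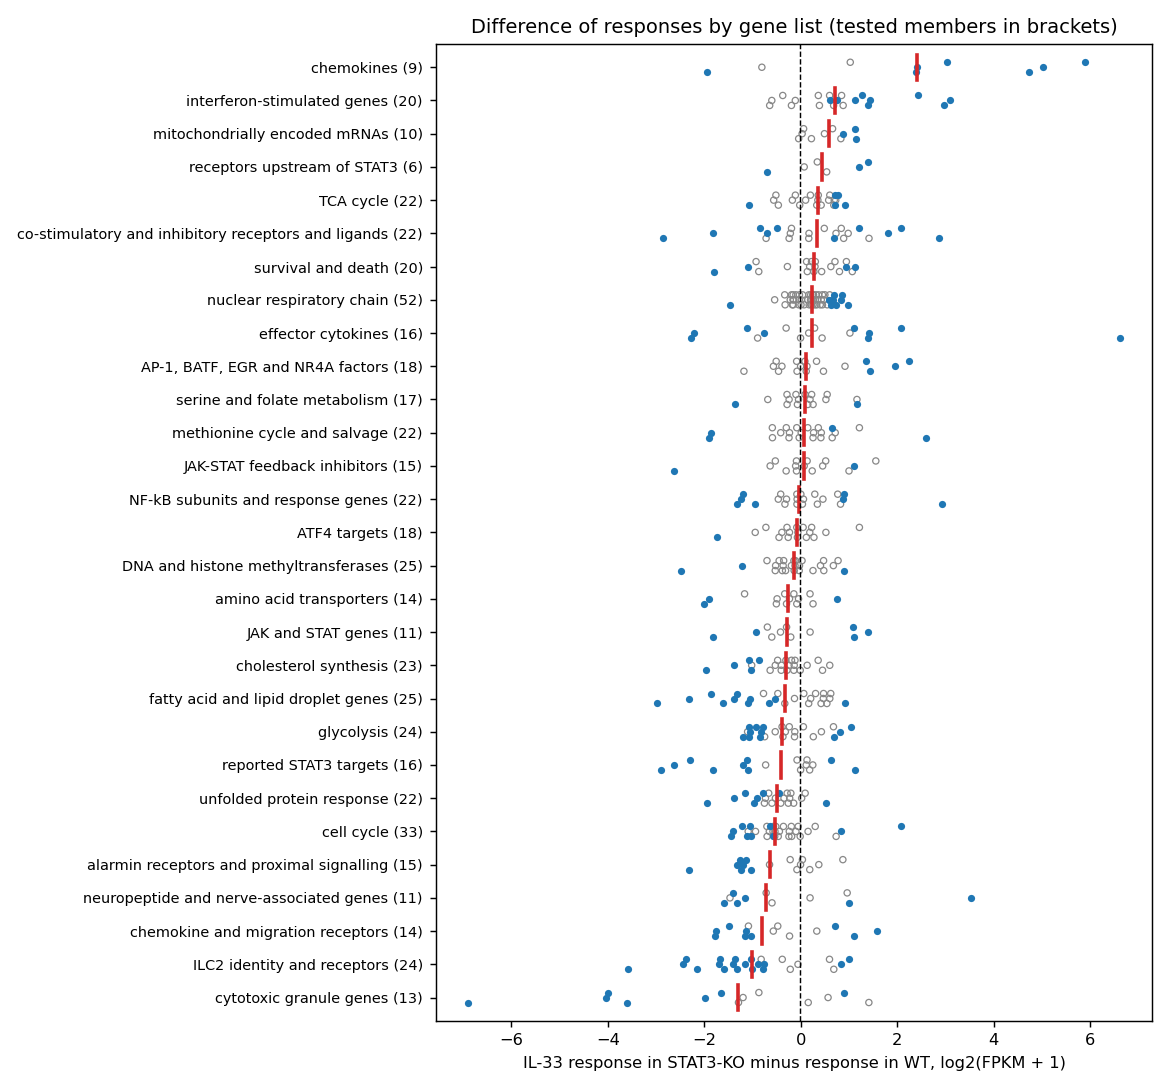
Each row is a gene list with its number of tested members; points are members placed by the difference of responses (STAT3-KO minus WT, log2(FPKM + 1)), filled where the difference was called, and the red bar is the list's median. The dashed line is the median of all tested genes, -0.02; chemokines (2.41) lie at the top and cytotoxic granule genes (-1.29) at the bottom.

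For most called genes the genotypes were closer in control than under IL-33. Of the 1799 called genes, 1707 (94.9%) had the larger gap between genotypes under IL-33, and 92 had it in control. The median absolute gap of the called genes was 0.158 in control and 1.14 under IL-33, against 0.155 and 0.399 over all tested genes. In 1570 (87.3%) the control gap was under 0.5. Neither share was computed over all tested genes, where the median gap was also smaller in control. The shares are therefore not read as a trait of the called genes. Since a called difference of responses needs a gap in at least 1 condition, the median under IL-33 is partly fixed by the selection.

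Gene length moved with the difference of responses. Across 11866 genes with a length, the difference had a Spearman's rho of -0.198 with merged exon length, as a description over genes that share the same 8 libraries. The response in STAT3-KO had -0.199 and that in WT -0.0436. When genes were cut by length into 5 groups of similar size, the longest group of 2373 held 51 called higher and 322 lower, and the second shortest group of 2372 held 302 higher and 143 lower. Genes called higher had a median length of 2839 bases and genes called lower of 5269 bases. With the trend on length removed, 1829 genes were called, 842 higher and 987 lower, of which 1494 were among the 1799, and 0 of the 1799 changed sign. The patterns were less stable. They were kept by 100 of the 165 opposite genes, 589 of the 851 in STAT3-KO only and 231 of the 340 in WT only. The longest group then held 145 higher and 212 lower, and the second shortest 206 and 213. Within STAT3-KO the fall of Fasn, a long gene, became 0.01 after this removal, so its opposite pattern did not remain.

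**Figure D4:**
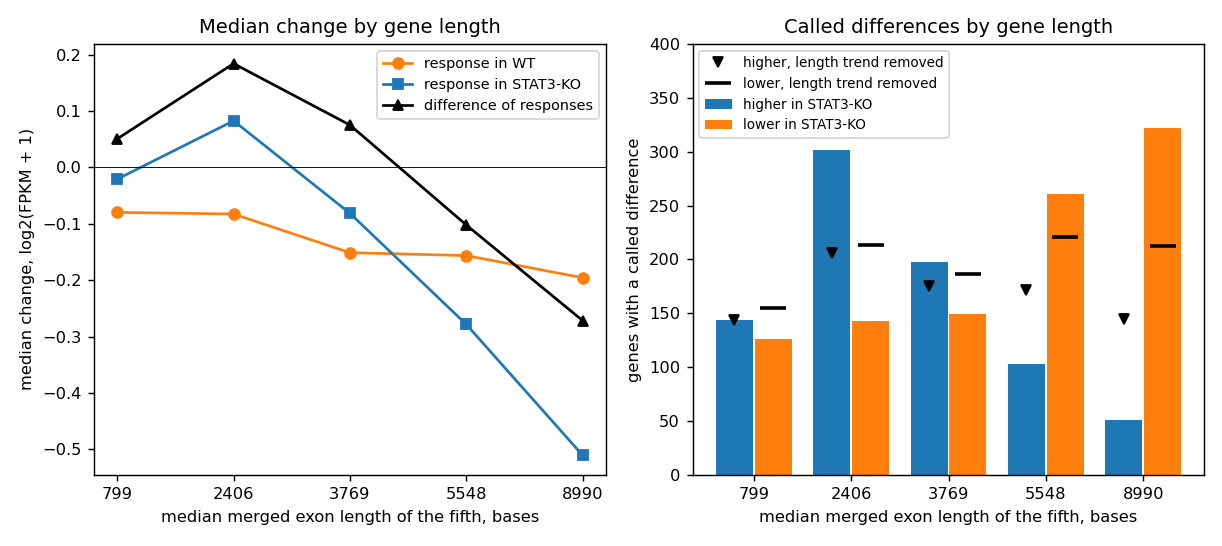
Left, the median IL-33 response in each genotype and the median difference of responses, log2(FPKM + 1), in 5 groups of tested genes by merged exon length; right, the number of called differences in each group as bars, with markers for the counts after removal of the length trend. The longest group (median length 8990 bases) has a median difference of -0.27 and 322 genes called lower.

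Markers of other cells were read beside these results. The ILC2 genes Gata3, Il7r and Il1rl1 were high in control of both genotypes, as given above. The summed FPKM of 9 listed dendritic cell markers was 49.04 to 53.05 in WT control, 162 to 188 in WT with IL-33, 86.1 to 94.4 in STAT3-KO control and 609.5 to 702 in STAT3-KO with IL-33. Nearly all of it came from the class II genes H2-Aa, H2-Eb1, H2-Ab1 and Cd74, which ILC2s also express. Flt3 and Cd209a stayed at or under 0.0952 FPKM in every library, Itgax under 0.2, and Zbtb46 reached 1.02. Only 3 of the 9 markers stayed under 1 FPKM everywhere, so the low members named here do not stand for the list. Of 5 tested members 2 were called higher in STAT3-KO and 0 lower. The summed mast cell and basophil markers, Cpa3 and Mcpt8 for the most part, went from 299 to 326 in WT control, 127 to 156 in WT with IL-33, 111 to 140 in STAT3-KO control and 7.53 to 8.72 in STAT3-KO with IL-33. The summed T cell markers were 81.2 to 88.5, 36.3 to 44.1, 72.7 to 74.2 and 11.5 to 17.9 in the same order, and 6 of 9 stayed under 1 FPKM. The control sums came mostly from the 3 tested members, of which 1 was called lower in STAT3-KO and 0 higher. The summed B cell markers, mainly Ighm and Cd79b, were 56.3 to 58.4, 15.8 to 17.1, 50.6 to 53.1 and 22.6 to 25.1, with Cd79b called higher in STAT3-KO. The summed ILC3 markers, nearly all from Ltb, were 612 to 614, 333 to 350, 591.5 to 658 and 202 to 268. The summed NK cell and ILC1 markers were 7.92 to 8.76, 7.70 to 8.18, 31.5 to 34.2 and 5.26 to 5.60, and 7 of 9 stayed under 1 FPKM everywhere. Tbx21 measured 19.7 and 21 FPKM in STAT3-KO control, 4.12 and 3.04 in WT control and at most 4.55 in the IL-33 libraries. Cd3e and Cd3d, both among the T cell markers under 1 FPKM, were at most 0.332 FPKM. They do not stand for the 3 tested T cell markers that gave most of the control sum. All 5 listed granulocyte markers stayed under 1. In the same order, macrophage and monocyte markers summed to 1.12 to 1.64, 5.93 to 6.78, 1.30 to 3.09 and 3.23 to 6.74. Epithelial and stromal markers summed to 21.8 to 25.7, 29.2 to 31.1, 24 to 27.3 and 23 to 28.5, with 1 of 3 tested called lower. Red blood cell markers summed to 19.1 to 19.3, 4.51 to 5.79, 10.6 to 12.75 and 3.98 to 4.665. In these cultures fewer cells of a kind and less RNA per cell cannot be told apart, and the part of such cells in the results was not tested.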

How the data were processed

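Gene expression in cultured mouse lung ILC2s was deposited by the authors as FPKM. The submitters' processing notes name Bowtie2, RSEM and GRCm38. Versions, annotation and strand are not given in the sources used here. Each library held 15843685 to 19905817 reads, recovered from whole-read steps in low values, and 3 reads in 1 kb equal 0.151 to 0.189 FPKM. This number limits the precision.

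For genes at 1 FPKM or more in 2 or more libraries, limma 3.58.1 (R 4.3.3; lmFit, eBayes with trend) was fitted to log2(FPKM + 1) over all 8 libraries, two-sided, with Benjamini-Hochberg adjustment, called at 0.05, with 4 residual degrees of freedom. Errors are limma's standard errors. Fold changes on this scale understate low genes. The fit was tested on simulated data. Reads of near-identical, overlapping or antisense genes cannot be told apart. The main fit did not pair libraries by replicate number.

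Named genes were Stat3, 12 fixed cytokine, receptor and regulator genes, the top genes of each pattern with non-overlapping genotypes and a group mean of at least 5 FPKM, and the leading members of each list. Other list members were chosen after their values were seen. Members and lists were chosen with earlier results of these data known. Figures used Python 3.11.15 and matplotlib 3.10.9. Some genes that the rule names are not reported here.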

Additional observations from a re-analysis of the deposited data

Results flagged for a closer look

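The named genes below had called responses to IL-33 of opposite sign in the 2 genotypes and a called difference of responses (limma, all adjusted p under 0.05), which is why they stand here. Of those that rose in WT and fell in STAT3-KO, Gzmb differed by -6.89, Ero1l by -4.28, Serinc5 by -4.08, Hif1a by -2.89 and Atad2 by -2.72. Smaller differences were those of Insig1 (-1.96), Gpr183 (-1.78), Fasn (-1.33) and Birc2 (-1.33). Of those that fell in WT and rose in STAT3-KO, Rxra differed by 3.38, Gbp10 by 3.29, Gypc by 3.13, Gbp2 by 3.08, mt-Rnr1 by 2.57, Igtp by 2.43 and Il12rb1 by 1.21. After removal of the trend with gene length the differences were -7.06 for Gzmb, -4.19 for Ero1l, -2.74 for Hif1a, -2.36 for Atad2, 2.91 for Gbp2 and 3.49 for Rxra.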

How the results depend on the processing

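The difference of responses was refitted under 12 other settings of the analysis and with each of the 8 libraries left out. No named gene with a called difference changed sign in any setting in which it was refitted. The uncalled differences of Adgre5, Areg, H2-DMb2, Ifi206, Nr4a1, Stom and Tmem71 took both signs. Of the 131 named genes, 117 passed the filter of 4 libraries and 127 remained without mitochondrial genes. Without the filter on low values 1149 genes were called (611 lower), with 94 opposite, 554 in STAT3-KO only, 189 larger in STAT3-KO and 61 larger in WT. At an adjusted p of 0.01 there were 566 (243 higher, 323 lower), with 41 opposite, 274 in STAT3-KO only (223 bounded), 120 in WT only (103 bounded), 90 larger in STAT3-KO, 39 larger in WT and 822 alike. With a bound of 1.5-fold in place of 2-fold, 333 were alike, 343 bounded in STAT3-KO only and 156 bounded in WT only. The bounded genes in WT only were 192 with a pseudocount of 0.1 and 191 with TPM. The opposite pattern was kept by 118 of 165 genes with TPM and by 113 with libraries rescaled by the median of ratios. Without mitochondrial genes 114 of the 163 still tested kept it.

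With 1 library left out, the lone library of that group is assumed to vary like the others. The count then ranged from 764 (without WT IL-33 library 2) to 1993 (without WT control library 2), higher genes from 364 to 870 and lower genes from 395 to 1123. It was 1061 without WT control library 1, 838 without WT IL-33 library 1, 902 and 808 without STAT3-KO control library 1 and 2, and 1116 without STAT3-KO IL-33 library 1. Opposite genes ranged from 79 to 252, STAT3-KO only from 339 to 962 (bounded 285 to 749), WT only from 123 to 434 (bounded 110 to 387), larger in STAT3-KO from 122 to 308, larger in WT from 47 to 101 and alike from 814 to 1198. Of the 165 opposite genes, 70 kept that pattern without WT IL-33 library 2.

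Deviations of libraries with the same replicate number were nearly uncorrelated over genes (r from -0.0619 to 0.0448). This does not show whether such libraries shared mice or cultures, which the labels do not say. With the replicate number as a block, 1827 genes were called over the 4 groups and 1642 within genotype. Of these, 1658 and 1465 were among the 1799 of the main fit. At this depth FPKM under 0.151 to 0.189 for a gene of 1 kb stand on fewer than 3 reads.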

Other observations

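Some members of the lists were not picked by the naming rule and were chosen after their values were seen. Of the class II antigen presentation genes, H2-Aa and H2-Eb1 rose in both genotypes and more in STAT3-KO. H2-Aa went from 10.3 and 11.6 to 25.7 and 27 FPKM in WT and from 15.6 and 13.2 to 141 and 108 in STAT3-KO (1.82 ± 0.22, limma adjusted p = 0.00207), and H2-Eb1 differed by 1.48 ± 0.22. H2-Ab1 (0.65, adjusted p = 0.0577) and Cd74 (0.51, adjusted p = 0.162) did not pass the threshold. Kit, the stem cell factor receptor, measured 11 and 31.1 FPKM in WT control, 8.47 and 8.74 in WT with IL-33, 31.5 and 30.8 in STAT3-KO control, and 0.447 and 0.189 in STAT3-KO with IL-33. The STAT3-KO IL-33 pair lay far below the rest, and the WT controls were uneven.

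The chemokine genes Cxcl10 and Ccl22 were higher in STAT3-KO by 2.40 and 2.41, and the granule genes Nkg7 and Prf1 lower by -3.61 and -1.98. Gzmd was listed at 0 in all 4 IL-33 libraries, so its difference comes from the control libraries.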
